A study of Mus musculus with 4 samples.

Results

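The deep layers of the cerebral cortex were examined as a set of 367 capture spots, chosen from 11244 spots in 4 Visium libraries of mouse brain sections. A Visium spot is a small barcoded area of a slide that captures the polyadenylated RNA of the tissue above it, so it can hold several cells of different types. Only spots with at least 5000 unique molecular identifiers (UMIs, each marking 1 captured RNA molecule) entered the choice. For each of them the summed UMIs of Fezf2, Tle4 and Hs3st4 were divided by all its UMIs, and the highest 6% of each library were kept if they held at least 1 Fezf2 UMI and no UMI of Spink8, a gene of hippocampal CA1 neurons. This left 68 and 89 spots in the control libraries and 94 and 116 in the knockout libraries, at most 3.48% of the spots of each. The Spink8 condition removed 60 to 66 spots in each library, and the Fezf2 condition removed 3 in each control and 23 and 26 in the knockouts. At the edge of the 6% the last spot inside held 4.12, 3.78, 4.08 and 3.99 scoring UMIs per 10000 in control 1, control 2, knockout 1 and knockout 2, and the first spot outside held 4.10, 3.77, 4.08 and 3.97. These values chose the spots and are given as a description only. Fezf2, Tle4, Hs3st4 and Spink8 took no part in any test.

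The deep cortical layers hold the neurons that send axons out of the cortex. Layer 5 holds neurons that project to the brainstem and spinal cord, layer 6 holds corticothalamic neurons, and layer 6b is a thin sheet of neurons on top of the white matter. Fezf2 and Tle4 are transcriptional regulators of these neurons, and Hs3st4 encodes an enzyme that modifies heparan sulfate. Cerebral cavernous malformations are clusters of dilated, leaky capillaries that form in the brain when endothelial cells lose KRIT1, CCM2 or PDCD10, and the surrounding tissue then contains reactive glia and blood breakdown products.

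Both groups carried loxP-flanked Pdcd10 alleles. Controls were Pdcd10fl/fl littermates, and knockouts were Slco1c1-iCreERT2;Pdcd10fl/fl mice, in which a Cre recombinase driven in brain endothelial cells is switched on by tamoxifen, so that the gene is lost from those cells. Pups received 50 µg of 4-hydroxytamoxifen into the stomach on postnatal day 1, and brains were taken at postnatal day 65 and sectioned fresh frozen at 10 µm. The labels conflict on oxygen: the design and titles speak of normoxia, 1 label gives hypoxia for the knockouts and normoxia for the controls, and the treatment protocol attached to all 4 samples describes 12% oxygen for 2 days. Oxygen may therefore coincide with genotype, and the effects of the 2 cannot be told apart here. Each group has 2 libraries. Nothing in the labels says that the libraries of a group came from different animals, and the spread that the p-values rest on may therefore be technical.

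The libraries held 50148764, 64317838, 53514669 and 74467027 UMIs in all. Their sets of 4992 barcodes were identical, as barcodes mark slide positions, and the positions themselves and the tissue images were not analysed here. The deep-layer spots were shallower in the knockouts, with median UMIs of 24017.5 and 25982 in the controls against 10631.5 and 14096.5 in the knockouts. A median spot accordingly held 13 and 12 scoring UMIs in the controls against 6 and 7 in the knockouts. Summed over spots, the 2 controls correlated at r = 0.978 and the 2 knockouts at r = 0.968 across genes, and a control with a knockout at 0.897 to 0.921. As genes are not independent of each other, these correlations only describe the libraries. Control 1 had a lower mitochondrial share of UMIs (4.69%) than control 2, knockout 1 and knockout 2 (8.34%, 8.53% and 8.83%).

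Genes of the deep layers that the choice did not use were checked in the chosen spots against all other spots, as a description. Levels are given as counts per 1000000 UMIs (CPM) of the spots of a library. Tbr1, a transcription factor of layer 6 neurons, ran from 187 to 247 against 60.2 to 65.7 in the other spots. Cplx3, a complexin of layer 6b, ran from 74.99 to 129 against 9.74 to 18.7, and Ccn2, a secreted matrix protein of layer 6b, from 114 to 189 against 21.6 to 55.5. Rprm, Foxp2, Syt6, Sulf1, Crym, Bcl11b, Deptor, Rbp4 and Pcp4 were also above the other spots in all 4 libraries, which makes 12 of the 17 layer 5 and layer 6 markers checked. Ntsr1, Etv1 and Nxph4 were above them in 3 libraries, and Parm1 and Bcl6 in 2. The ratio of deep-layer to other spots ran from 0.931 to 1.16 for Ntsr1, from 0.385 to 2.53 for Nxph4 and from 0.626 to 1.04 for Bcl6. The excitatory neuron gene Slc17a7 was too. Upper-layer genes were low, with Cux2 at 6.30 to 12.9 against 24.4 to 27.6, and Rasgrf2, Lamp5, Otof and Calb1 were below the other spots in every library. Among markers of other regions, the dentate gyrus genes Prox1 and C1ql2, the thalamic genes Prkcd, Tnnt1 and Slc17a6 and the CA1 gene Wfs1 were below the other spots in all 4 libraries, and the CA1 gene Fibcd1 in 3. The choroid plexus gene Ttr did not exceed 2.58 and the striatal gene Adora2a 3.57. The striatal genes Drd1, Rgs9 and Ppp1r1b were above the other spots in all 4 libraries, at 15.5 to 19.1, 10.9 to 15.7 and 28.8 to 78.6. The myelin genes Mbp and Mog were below the other spots in each library. Most but not all markers of the deep layers were thus above the other spots, in spots that also hold RNA of glia, vessels and some neighbouring tissue.

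Pdcd10 itself was at 90.4 and 79.0 in the controls against 68.7 and 90.3 in the knockouts and was not called (log2 fold change -0.04 ± 0.16, adjusted p = 0.909). The gene is expressed by many cell types, and the deletion is restricted to brain endothelium, so its level over whole spots is a weak check of the labels. The spot sums were compared between groups with edgeR's quasi-likelihood test, and a gene was called at a Benjamini-Hochberg adjusted p under 0.05 over all tested genes. Fold changes are knockout over control and carry the standard error of that fit after ±. Of 11356 genes tested, 1031 were higher in the knockouts, which is 9.08% of those tested, and 799 were lower, which is 7.04%. Called genes in either direction made up 16.1%. The libraries of the groups did not overlap for 6449 genes, or 56.8%, so a lack of overlap in a named gene is common among all genes. The median log2 fold change over all tested genes was 0.0006. Of the higher genes, 660 passed the filter on low counts in both groups and 371 passed it through the knockouts only. Without knockout 2 there were 1115 calls, 976 of them shared. When every library was reduced to the same number of spots and UMIs, 506 of 6651 tested genes were called, and 472 of those were among the 1830. With fewer members passing the filter there, the higher calls were 12 in the reactive astrocyte list and 8 in the interferon list, and the lower calls 10 among the immediate early genes, each list being described with its genes. In tissue sums like these, fewer cells of a type and less RNA per cell cannot be told apart, and neither can more cells and more RNA per cell.

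The largest rises were in genes of glia, phagocytes and vessels. Serpina3n, a secreted serine protease inhibitor of reactive astrocytes, measured 5.15 and 8.59 in the controls against 563 and 649 in the knockouts (log2 fold change 6.43 ± 0.20, adjusted p = 3.08e-16). Vim, an intermediate filament of reactive astrocytes and vessel cells, stood at 21.2 and 26.6 in the controls against 828 and 902 in the knockouts (log2 fold change 5.18 ± 0.16, adjusted p = 3.08e-16). Both knockout libraries lay far above both controls for these genes. Spp1, the secreted phosphoprotein osteopontin, was at 1.14 and 7.73 in the controls against 368 and 434 in the knockouts (log2 fold change 6.37 ± 0.26, adjusted p = 3.87e-14). Igfbp2, which binds insulin-like growth factors, measured 7.44 and 17.6 in the controls against 330.3 and 336 in the knockouts (log2 fold change 4.68 ± 0.20, adjusted p = 1.64e-13). S100a6, a calcium-binding protein, stood at 26.9 and 44.7 in the controls against 669.5 and 518 in the knockouts (log2 fold change 4.03 ± 0.19, adjusted p = 4.15e-13). Again the groups did not overlap, which was a condition for naming these genes. Several of the largest rises were in genes nearly absent from the control spots. Cxcl10, a chemokine induced by interferon, had no UMI in either control and 20.5 and 71.8 CPM in the knockouts, at least 62.7-fold higher against a floor of 3 UMIs over the control group. Cd109, a membrane glycoprotein, likewise had none and 39.3 and 20.2, at least 40.4-fold higher. Timp1, an inhibitor of metalloproteinases, had 1 UMI in the controls against 176 in the knockouts, a ratio of levels of 247 with a 95% counting interval of 43.8 to 9810.  Ms4a6b, a membrane protein of myeloid cells, had 1 against 80 UMIs (ratio 112, interval 19.6 to 4489). These intervals cover counting error only. The other genes among the 10 largest rises were Tagln, Ccl12, Oasl2 and Lcn2, which are described with their groups. All 10, Serpina3n and Spp1 included, passed the filter on low counts through the knockouts only and could hardly have fallen. Igfbp2 and S100a6 passed it in both groups.

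The largest falls were in genes of inhibitory neurons, of neuronal activity and of myelin. Cort, the neuropeptide cortistatin, was at 100.2 and 72.6 in the controls against 3.57 and 3.36 in the knockouts (log2 fold change -4.58 ± 0.31, adjusted p = 2.91e-10). Egr2, an activity-induced transcription factor, had 106 UMIs in the controls against 3 in the knockouts, a ratio of 25.2 (95% counting interval 8.39 to 124). Cox6a2, the subunit of cytochrome oxidase known from muscle and from parvalbumin interneurons, measured 47.5 and 39.9 in the controls against 4.46 and 3.36 in the knockouts (log2 fold change -3.47 ± 0.34, adjusted p = 7.17e-08). The groups did not overlap in these, but this was a condition for naming the largest falls. Gamt, an enzyme of creatine synthesis in oligodendrocytes, stood at 52.7 and 60.1 in the controls against 4.46 and 10.7 in the knockouts (log2 fold change -2.76 ± 0.28, adjusted p = 1.84e-07). Plekhh1, a gene of myelinating oligodendrocytes, was at 29.2 and 36.5 in the controls against 2.68 and 5.61 in the knockouts (log2 fold change -2.86 ± 0.36, adjusted p = 3.65e-06). Serpinb1a, an intracellular protease inhibitor, measured 15.5 and 19.3 in the controls against 2.68 and 2.80 in the knockouts (log2 fold change -2.62 ± 0.45, adjusted p = 2.04e-04). Cort, Egr2, Cox6a2, Gamt, Plekhh1 and Serpinb1a passed the filter on low counts through the controls only and could hardly have risen. Opalin, Ugt8a, Egr4 and Arc, which passed it in both groups, complete the 10 largest falls and are given with their groups.

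**Figure D1:**
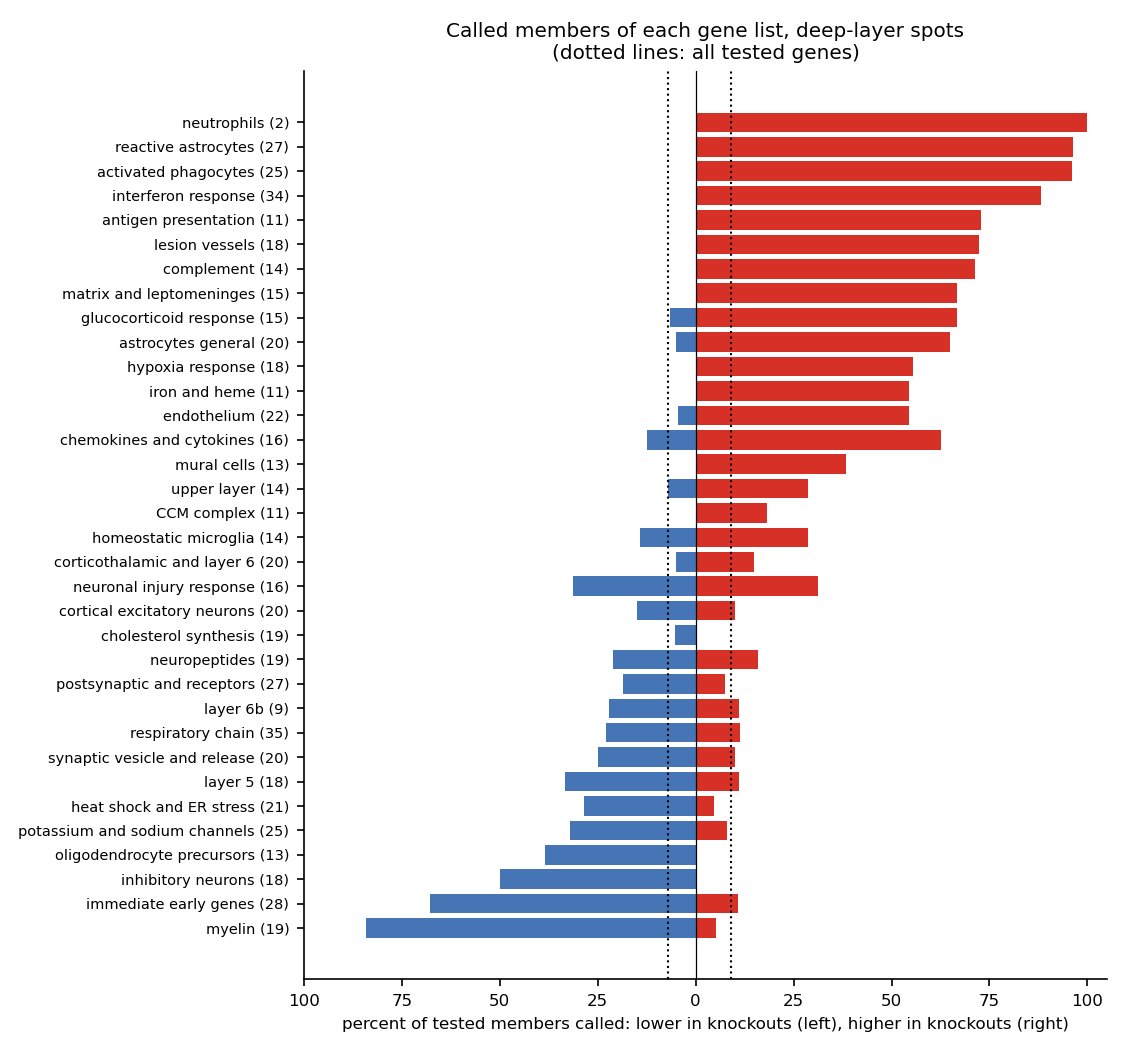
Percent of the tested members of each gene list that were called lower (bars to the left, blue) or higher (bars to the right, red) in the deep-layer spots of the knockouts, with the number of tested members in parentheses. Dotted lines mark the shares over all tested genes, 7.04% lower and 9.08% higher, and most members of the reactive astrocyte, activated phagocyte and interferon lists lie on the right and of the myelin and immediate early lists on the left. The full bar of the neutrophil list stands for 2 genes, and members that passed the filter on low counts through the knockouts only could hardly fall.

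**Figure D2:**
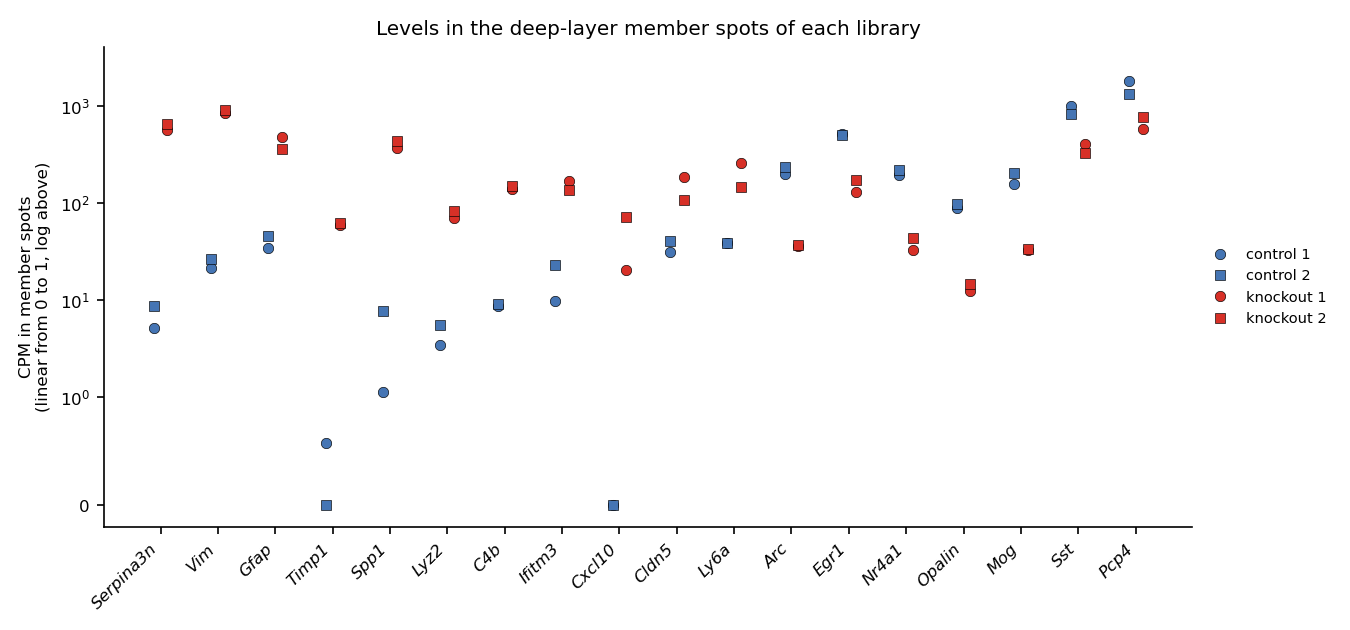
Levels of 18 genes in the deep-layer spots of each library, in CPM on an axis that is linear from 0 to 1 and logarithmic above, with controls in blue and knockouts in red (circles replicate 1, squares replicate 2). For every gene drawn, both knockout points lie on the same side of both control points.

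The markers of layer 6 neurons were mostly at similar levels in both groups. The spots of every library were chosen by their share of Fezf2, Tle4 and Hs3st4 UMIs. The choice may therefore hold other genes of the same neurons at similar levels, and this was not tested. Of 20 tested members of the corticothalamic and layer 6 list, 3 were higher and 1 was lower, with a median log2 fold change of 0.03. Rprm, a p53 target that marks subplate and layer 6 neurons, stood at 271 and 199.7 in the controls against 231 and 244 in the knockouts (log2 fold change 0.05 ± 0.14, adjusted p = 0.873). Tbr1 was at 205 and 191 in the controls against 187 and 247 in the knockouts (log2 fold change 0.17 ± 0.14, adjusted p = 0.45). Syt6, a synaptotagmin, and Foxp2, a transcription factor of corticothalamic neurons, stood at 17.7 and 14.6 in the controls against 15.2 and 19.6 in the knockouts, and at 17.2 and 18.5 in the controls against 23.2 and 27.5 in the knockouts. None of these 4 was called, and the groups overlapped for Rprm, Tbr1 and Syt6, while for Foxp2 both knockouts lay above both controls. Lypd1, a membrane protein that binds nicotinic acetylcholine receptors, was the exception, at 87.6 and 94.9 in the controls against 33.0 and 28.03 in the knockouts (log2 fold change -1.58 ± 0.19, adjusted p = 1.43e-06). Its call held in every setting in which it was tested. The 3 higher members were Cdh18, a cadherin, Igfbp6, a binding protein of insulin-like growth factors, and Garnl3. All 3 lost the call without control 1 and without knockout 2, and Garnl3 also without knockout 1 and Cdh18 without control 2. Their fold changes were small for Garnl3 (0.55 ± 0.14 on the log2 scale) and Igfbp6 (0.79 ± 0.23).

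In the layer 6b list, 1 of 9 tested members was higher and 2 were lower, and only 4 of the 9 passed the filter in both groups. Nr4a2, an orphan nuclear receptor that marks layer 6b and claustrum and is also induced by activity, stood at 246 and 187 in the controls against 76.8 and 62.8 in the knockouts (log2 fold change -1.62 ± 0.16, adjusted p = 1.01e-07). Moxd1, a monooxygenase, was at 11.4 and 9.88 in the controls against 3.57 and 1.68 in the knockouts (log2 fold change -2.08 ± 0.53, adjusted p = 0.00804), and it lost the call without control 1 and without knockout 2. Cplx3, by contrast, measured 129 and 110.4 in the controls against 74.99 and 97.0 in the knockouts and was not called (log2 fold change -0.43 ± 0.15, adjusted p = 0.0619). Ccn2 stood at 157 and 114 in the controls against 189 and 186 in the knockouts (log2 fold change 0.50 ± 0.14, adjusted p = 0.0185), and it lost the call without control 2, without knockout 1 and without knockout 2. Nr4a2 was well below control levels in both knockouts, while the libraries of Cplx3 lay closer together.

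Of 18 tested genes of layer 5 neurons, 6 were lower and 2 were higher. Pcp4, a calmodulin-binding peptide abundant in layer 5, was at 1807 and 1323 in the controls against 573 and 755 in the knockouts (log2 fold change -1.21 ± 0.15, adjusted p = 4.44e-06). Rbp4, a retinol carrier that marks layer 5 neurons, measured 80.1 and 60.1 in the controls against 13.4 and 29.1 in the knockouts (log2 fold change -1.59 ± 0.24, adjusted p = 4.60e-05). Parm1, a membrane glycoprotein, stood at 125 and 101 in the controls against 52.7 and 46.5 in the knockouts (log2 fold change -1.17 ± 0.17, adjusted p = 3.11e-05). For all 3 both knockouts were below both controls, and the calls held in every setting in which they were tested. Etv1, a transcription factor of layer 5 neurons, fell by 0.69 on the log2 scale, and Vat1l and Ldb2 by 1.04 and 0.56. These 3 lost the call without knockout 2. Bcl11b, the transcription factor of subcerebral projection neurons, was at 86.4 and 80.8 in the controls against 83.9 and 82.4 in the knockouts and was not called. The 2 higher members were Tmem40, at 3.43 and 2.15 in the controls against 7.14 and 11.8 in the knockouts and not called without control 2 or without knockout 2, and S100a10, an annexin-binding protein that is also a gene of reactive astrocytes, at 63.0 and 71.7 in the controls against 171 and 172 in the knockouts (log2 fold change 1.36 ± 0.14, adjusted p = 3.00e-07).

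**Figure D3:**
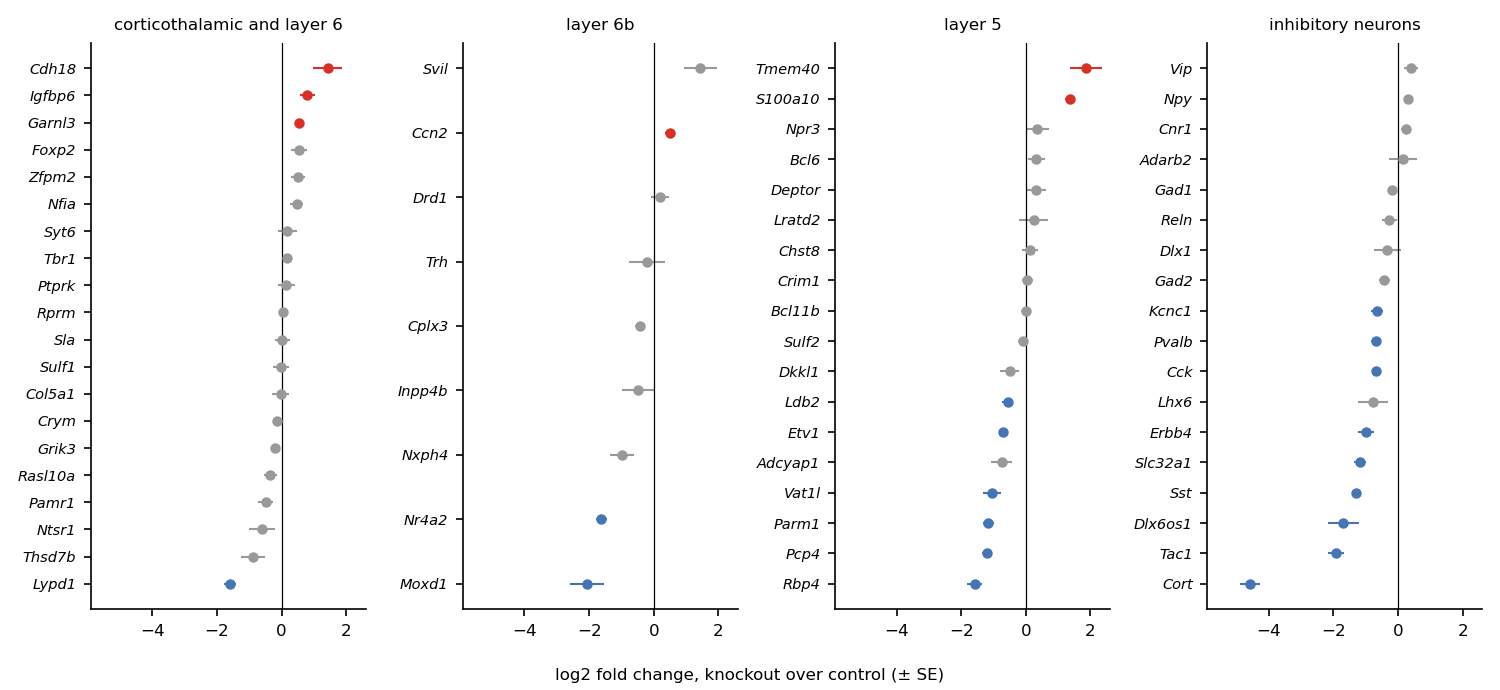
Log2 fold change, knockout over control, of every tested member of 4 neuronal gene lists in the deep-layer spots, with bars for the standard error, and red for called higher, blue for called lower and grey for not called. Layer 6 members lie around 0 apart from Lypd1 at the bottom, while the inhibitory neuron list has 9 members called lower and none higher.

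Members of the upper-layer list were at low levels in these spots, and 4 of 14 tested were higher and 1 was lower. Lamp5, a membrane protein of upper-layer neurons and of some interneurons, measured 56.7 and 60.1 in the controls against 16.1 and 20.7 in the knockouts (log2 fold change -1.61 ± 0.22, adjusted p = 9.38e-06). Nptx2, a secreted pentraxin that binds AMPA receptors, stood at 17.7 and 24.1 in the controls against 53.6 and 75.7 in the knockouts (log2 fold change 1.65 ± 0.22, adjusted p = 7.71e-06), and Wfs1, an endoplasmic reticulum protein, at 33.8 and 39.5 in the controls against 80.3 and 76.8 in the knockouts (log2 fold change 1.10 ± 0.18, adjusted p = 9.46e-05). Both knockouts were above both controls for Nptx2 and Wfs1 and below them for Lamp5. Calb1 and Cux1 were also called, with log2 fold changes of 0.62 ± 0.16 and 0.75 ± 0.22, and lost the call without knockout 1. Cux1 lost it without control 2 and without knockout 2 as well. Wfs1 is also a CA1 gene, and of the CA1 list Fibcd1 was at 20.0 and 11.2 in the controls against 8.93 and 11.2 in the knockouts and was not called. Whether neighbouring tissue took part in these changes was not tested.

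Genes shared by cortical excitatory neurons changed little. Of 20 tested members 2 were higher and 3 were lower, and none of the 5 kept its call when each library was left out in turn. Slc17a7, the vesicular glutamate transporter, measured 1043 and 985 in the controls against 1271 and 1338 in the knockouts (log2 fold change 0.39 ± 0.13, adjusted p = 0.0387). Camk2a, a kinase of excitatory synapses, stood at 230.1 and 244 in the controls against 362 and 333 in the knockouts (log2 fold change 0.57 ± 0.12, adjusted p = 0.00226). Nrgn, a calmodulin-binding protein of dendrites, was at 2187 and 1901 in the controls against 1412 and 1347 in the knockouts (log2 fold change -0.54 ± 0.13, adjusted p = 0.00686). The groups did not overlap for any of the 3. The other lower members were Itpka and Camkv, at -0.66 ± 0.14 and -0.44 ± 0.12 on the log2 scale. Without knockout 2 none of the 3 lower members was called, and without knockout 1 only Itpka was.

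Inhibitory neurons are the local GABA-releasing cells of the cortex, and none of the 18 members of their list was higher while 9 were lower. The median log2 fold change of the list was -0.66, beside 0.0006 over all tested genes. Of the 18, 5 passed the filter through the controls only, and of the 13 that passed in both groups 7 were lower. Sst, the neuropeptide somatostatin, stood at 982 and 822 in the controls against 398 and 325 in the knockouts (log2 fold change -1.30 ± 0.14, adjusted p = 2.55e-07). Slc32a1, the transporter that loads GABA into vesicles, was at 85.3 and 83.8 in the controls against 41.1 and 34.2 in the knockouts (log2 fold change -1.17 ± 0.18, adjusted p = 5.83e-05). Tac1, the precursor of substance P, measured 49.2 and 50.7 in the controls against 12.5 and 13.5 in the knockouts (log2 fold change -1.91 ± 0.24, adjusted p = 3.63e-06). In these 3 genes, and in Cort, both knockouts lay below both controls and the call held in every setting that tested the gene. Pvalb, the calcium-binding protein of fast-spiking interneurons, stood at 123 and 125 in the controls against 68.7 and 81.8 in the knockouts (log2 fold change -0.68 ± 0.15, adjusted p = 0.00256). Dlx6os1, Erbb4, Cck and Kcnc1 were the other lower members, from -1.69 ± 0.48 for Dlx6os1 to -0.64 ± 0.18 for Kcnc1. Gad1 and Gad2, the GABA-synthesizing enzymes, were at 219 and 210.0 in the controls against 183 and 188 in the knockouts, and at 85.3 and 113 in the controls against 64.3 and 80.7 in the knockouts, and neither was called. Vip, the peptide of another interneuron class, measured 29.2 and 30.9 in the controls against 38.4 and 39.8 in the knockouts (log2 fold change 0.40 ± 0.21, adjusted p = 0.211), and Npy, which many Sst cells also make, at 252 and 187 in the controls against 289 and 251 in the knockouts (log2 fold change 0.32 ± 0.14, adjusted p = 0.122). Neither Vip nor Npy was called. Of the 9, 6 were called whichever library was left out, and Kcnc1, Dlx6os1 and Erbb4 were not.

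The neuropeptide list shares Cort, Tac1, Sst and Cck with that of the interneurons, and these were its 4 lower members of 19 tested. Its 3 higher members were Penk, Pdyn and Scg2. Pdyn, the precursor of dynorphins, stood at 6.30 and 7.73 in the controls against 20.5 and 17.9 in the knockouts (log2 fold change 1.43 ± 0.35, adjusted p = 0.00571). Penk, the precursor of enkephalins, was at 33.8 and 33.5 in the controls against 94.6 and 40.9 in the knockouts (log2 fold change 0.95 ± 0.26, adjusted p = 0.0155), with knockout 1 far above the other 3 libraries, and it was not called without knockout 1. Scg2, a granin of secretory vesicles, changed by 0.51 ± 0.13 on the log2 scale and lost its call without control 1, without knockout 1 and without knockout 2.

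Genes of the presynaptic terminal were lower in 5 cases and higher in 2 of 20 tested. Stx1a, the syntaxin of the release machinery, measured 208 and 195 in the controls against 112 and 122 in the knockouts (log2 fold change -0.75 ± 0.13, adjusted p = 2.58e-04). Its call held in every setting in which it was tested. Rims1 and Unc13a, which dock and prime vesicles, stood at 55.5 and 70.4 in the controls against 37.5 and 25.2 in the knockouts, and at 115 and 110.0 in the controls against 75.9 and 71.2 in the knockouts. Both were called but lost the call without knockout 2. Snap25 and Syp were at 2903 and 2628 in the controls against 2270.2 and 2516 in the knockouts, and at 753 and 736 in the controls against 583 and 626 in the knockouts, and were not called. Syt1 and Rab3a were the other lower members, at -0.36 ± 0.12 and -0.40 ± 0.13 on the log2 scale, and Napb and Bsn the higher ones, at 0.36 ± 0.12 and 0.43 ± 0.13. Without knockout 2, 1 member was lower, and without knockout 1, 3 were.

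Among postsynaptic genes and transmitter receptors, 5 of 27 tested members were lower and 2 were higher. Gabrd, the delta subunit of extrasynaptic GABA receptors, measured 34.3 and 25.8 in the controls against 9.82 and 7.85 in the knockouts (log2 fold change -1.75 ± 0.31, adjusted p = 2.95e-04). Homer1, a scaffold with an activity-induced short form, stood at 187 and 194 in the controls against 99.1 and 127 in the knockouts (log2 fold change -0.72 ± 0.14, adjusted p = 8.45e-04). Both knockouts were below both controls for these, and both calls held in every setting in which they were tested. Grm2, Gria3 and Grin1 were also lower, at -1.12 ± 0.29, -0.58 ± 0.13 and -0.39 ± 0.12 on the log2 scale, and all 3 lost the call without knockout 2. Grin2b and Shank2 were higher, by 0.42 ± 0.14 and 0.60 ± 0.19, and each lost the call without control 1, without knockout 1 and without knockout 2. Without knockout 2 the count of lower members was 2, and without control 1 it was 8.

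Of 25 tested potassium and sodium channel genes, 8 were lower and 2 were higher. Kcnip2, a subunit that modulates A-type channels, was at 91.0 and 73.0 in the controls against 31.2 and 32.5 in the knockouts (log2 fold change -1.32 ± 0.19, adjusted p = 2.09e-05). Kcnc2, a fast potassium channel of interneurons, measured 91.0 and 92.8 in the controls against 42.0 and 53.8 in the knockouts (log2 fold change -0.89 ± 0.17, adjusted p = 6.83e-04). Kcna1, a channel of axons, went the other way, at 1.14 and 5.15 in the controls against 16.1 and 15.1 in the knockouts (log2 fold change 2.18 ± 0.47, adjusted p = 0.00209). The calls of these 3 held in every setting in which they were tested, and their groups did not overlap. The remaining 6 lower members included Kcnc1, Scn3b and Hcn2 and ran from -0.83 ± 0.26 for Kcnq5 to -0.38 ± 0.13 for Scn2a. Each of them lost its call when at least 1 library was left out, and the count of lower members was 3 without knockout 1 and also without knockout 2, and 5 without either control. Scn1a was the other higher member, at 0.76 ± 0.19, and lost its call without knockout 2.

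Immediate early genes, which neurons transcribe within minutes of activity, fell together. Of 28 tested members 19 were lower and 3 were higher, and the median log2 fold change was -0.80. Arc, which controls the turnover of AMPA receptors, stood at 198 and 235 in the controls against 35.7 and 36.4 in the knockouts (log2 fold change -2.57 ± 0.17, adjusted p = 1.40e-10). Egr4, an activity-induced transcription factor, was at 139 and 138 in the controls against 22.3 and 18.5 in the knockouts (log2 fold change -2.76 ± 0.19, adjusted p = 3.65e-10). Nr4a1, an orphan nuclear receptor, measured 193 and 219 in the controls against 33.0 and 43.7 in the knockouts (log2 fold change -2.38 ± 0.17, adjusted p = 4.35e-10). Every one of these levels was lower in each knockout than in each control. Egr1 stood at 516 and 495 in the controls against 130.3 and 173 in the knockouts (log2 fold change -1.70 ± 0.14, adjusted p = 3.97e-09), and Fos, a subunit of the AP-1 transcription factor, at 133 and 126 in the controls against 24.9963 and 36.4 in the knockouts (log2 fold change -2.01 ± 0.18, adjusted p = 2.50e-08). Junb, Fosb, Ier2 and Nr4a3 fell by 1.39, 1.91, 1.83 and 2.47 on the log2 scale. Egr3, at 132 and 156 in the controls against 98.2 and 114 in the knockouts, was not called (log2 fold change -0.41 ± 0.15, adjusted p = 0.0556), and neither was Bdnf, at 24.6 and 19.3 in the controls against 32.1 and 10.7 in the knockouts. The 3 higher members were Jun, Klf2 and Klf4. Jun, the AP-1 partner that injured neurons also induce, was at 54.4 and 62.3 in the controls against 96.4 and 82.4 in the knockouts (log2 fold change 0.62 ± 0.17, adjusted p = 0.0134) and lost the call without control 1 and without knockout 1. Klf2 and Klf4 are transcription factors of endothelium as well, and are described with the vessels. Of the 22 called members 15 were called whichever library was left out. The other 7 were Fosl2, Ier5, Dusp1, Dusp6, Gadd45b, Jun and Klf2.

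Reactive astrocytes are the hypertrophied astrocytes of injured or inflamed tissue. Of 32 members of their list 27 were tested, 26 of which were higher and none lower, with a median log2 fold change of 3.37. Among the 27, 17 passed the filter through the knockouts only, and of the 10 that passed in both groups 9 were higher. Gfap, the astrocyte intermediate filament, measured 34.3 and 45.5 in the controls against 471 and 361 in the knockouts (log2 fold change 3.37 ± 0.17, adjusted p = 1.94e-12). C4b, a complement component, stood at 8.59 and 9.02 in the controls against 137 and 149 in the knockouts (log2 fold change 4.03 ± 0.21, adjusted p = 2.44e-12). Fbln5, an elastic fibre protein, was at 2.86 and 1.72 in the controls against 84.8 and 80.2 in the knockouts (log2 fold change 5.19 ± 0.30, adjusted p = 2.01e-11). No control library reached any knockout library in these genes. Osmr, the receptor of oncostatin M, measured 0.572 and 2.58 in the controls against 35.7 and 34.2 in the knockouts (log2 fold change 4.31 ± 0.42, adjusted p = 8.01e-08), and Hspb1, a small heat shock protein, at 13.7 and 18.9 in the controls against 99.99 and 97.5 in the knockouts (log2 fold change 2.58 ± 0.20, adjusted p = 1.97e-09). Lcn2, an iron-siderophore-binding lipocalin, had 3 UMIs in the controls against 156 in the knockouts, a ratio of 73.0 (95% counting interval 24.5 to 358). Emp1, a membrane protein, had 3 against 54 UMIs (ratio 25.3, interval 8.20 to 126). Stat3, the transcription factor downstream of interleukin-6 family receptors, stood at 28.6 and 33.5 in the controls against 75.9 and 77.4 in the knockouts (log2 fold change 1.31 ± 0.18, adjusted p = 1.37e-05). Synm, a further intermediate filament, was at 22.3 in each control against 28.6 and 22.98 in the knockouts and was not called. When each library was left out in turn, 23 of the 26 kept the call, and the other 3 (Cd44, Socs3 and Psmb8) lost it without 1 library each.

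Of 20 tested genes that astrocytes express at rest 13 were higher and 1 was lower, with a median log2 fold change of 0.63. All 20 passed the filter in both groups, and the difference from the reactive list was not tested. Glul, glutamine synthetase, measured 356 and 587 in the controls against 1541 and 1098 in the knockouts (log2 fold change 1.497 ± 0.186, adjusted p = 3.23e-06). Slc1a3, a glutamate transporter, stood at 209 and 267 in the controls against 569.6 and 499 in the knockouts (log2 fold change 1.18 ± 0.14, adjusted p = 1.31e-06). Aldh1l1, a folate enzyme, was at 28.05 and 24.5 in the controls against 91.1 and 93.1 in the knockouts (log2 fold change 1.84 ± 0.18, adjusted p = 9.09e-08). For these 3 both knockouts were higher than both controls. Apoe and Aqp4 changed by 0.97 ± 0.17 and 1.09 ± 0.20 on the log2 scale. Slc1a2, the main glutamate transporter of the forebrain, measured 1138 and 1499.5 in the controls against 1185 and 979.9 in the knockouts and was not called (log2 fold change -0.27 ± 0.15, adjusted p = 0.249). Ntsr2, a neurotensin receptor of astrocytes, was the lower member, at 111 and 166 in the controls against 107 and 76.8 in the knockouts (log2 fold change -0.61 ± 0.19, adjusted p = 0.0254), and it lost the call without control 2 and without knockout 2. Among others, Atp1b2, Ndrg2 and S100b lost their calls without at least 1 library each.

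Among genes of microglia and macrophages, those of phagocytic activation rose. Of 25 tested members of the activated phagocyte list 24 were higher and none was lower, with a median log2 fold change of 1.46. All 17 that passed the filter in both groups were higher. Lyz2, a lysozyme of macrophages, stood at 3.43 and 5.58 in the controls against 69.6 and 81.8 in the knockouts (log2 fold change 4.04 ± 0.27, adjusted p = 2.54e-10). Gpnmb, a glycoprotein of lipid-laden phagocytes, was at 2.29 and 2.15 in the controls against 39.3 and 39.8 in the knockouts (log2 fold change 4.14 ± 0.36, adjusted p = 1.31e-08). Cd68, a lysosomal protein, measured 8.59 and 11.2 in the controls against 49.1 and 58.3 in the knockouts (log2 fold change 2.45 ± 0.25, adjusted p = 1.67e-07). All 3 separated the groups completely. Fcer1g, an Fc receptor subunit, and Ctss, a lysosomal cysteine protease, stood at 12.0 and 13.3 in the controls against 83.9 and 99.8 in the knockouts, and at 42.9 and 58.8 in the controls against 138 and 192 in the knockouts. Lgals3, a galectin of activated phagocytes, had 3 UMIs in the controls against 115 in the knockouts (ratio 53.8, 95% counting interval 17.95 to 265). Lpl, lipoprotein lipase, was at 6.30 and 9.02 in the controls against 9.82 and 5.61 in the knockouts and was not called. The calls of 19 of the 24 held whichever library was left out, and those of Ctsb, Npc2, Ftl1, Axl and Aif1 did not.

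Genes of resting microglia did not move one way. Of 14 tested members 4 were higher and 2 were lower. P2ry12, the purine receptor of resting microglia, measured 29.8 and 40.4 in the controls against 17.0 and 19.1 in the knockouts (log2 fold change -0.94 ± 0.25, adjusted p = 0.0127), and Tmem119, another resting marker, at 16.6 and 15.5 in the controls against 6.25 and 6.17 in the knockouts (log2 fold change -1.34 ± 0.38, adjusted p = 0.0166). Both lost the call when a library was left out, P2ry12 without control 2 and Tmem119 without control 1 and without knockout 2. In contrast, Csf1r, the receptor on which microglia depend, stood at 36.6 and 49.4 in the controls against 87.5 and 109 in the knockouts (log2 fold change 1.21 ± 0.18, adjusted p = 4.05e-05). Trem2, a lipid receptor, was at 14.9 and 14.6 in the controls against 30.4 and 46.0 in the knockouts (log2 fold change 1.43 ± 0.26, adjusted p = 3.43e-04). Ltc4s, an enzyme of leukotriene synthesis, had the largest fold change of the list (2.66 ± 0.34). For the 6 called members the groups did not overlap, as was so for 56.8% of all genes tested.

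Complement genes were higher in 10 of 14 tested members, with none lower. Of the 14, 5 passed the filter through the knockouts only, and of the 8 that passed in both groups 6 were higher. C1qa, C1qb and C1qc, the subunits of C1q made by microglia, stood at 48.7 and 46.0 in the controls against 206 and 226 in the knockouts, at 48.1 and 53.3 in the controls against 199.97 and 303 in the knockouts, and at 34.9 and 44.2 in the controls against 207 and 239 in the knockouts. Their log2 fold changes were 2.22 ± 0.15, 2.34 ± 0.17 and 2.50 ± 0.16. Serping1, the inhibitor of C1, stood at 0.572 and 4.30 in the controls against 47.3 and 38.1 in the knockouts (log2 fold change 3.95 ± 0.40, adjusted p = 1.36e-07). C3ar1 and C5ar1 are the receptors of the complement peptides C3a and C5a. C3ar1 had 3 UMIs in the controls against 59 in the knockouts (ratio 27.6, 95% counting interval 8.99 to 138). C5ar1 had none in the controls against 6.25 and 10.1 CPM in the knockouts, at least 11.1-fold higher. Each of these genes was higher in both knockouts than in both controls. Cd59a and Cd55, which protect cells from complement, were at 9.73 and 11.2 in the controls against 19.6 and 17.4 in the knockouts, and at 5.72 and 4.72 in the controls against 6.25 and 4.48 in the knockouts, and were not called. Of the 10 higher members, Cr1l and Itgb2 lost the call without control 1 and without knockout 2.

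Interferon-induced genes rose from very low levels. Of 34 tested members 30 were higher and none was lower, with a median log2 fold change of 3.01. The filter matters here, since 27 of the 34 passed it through the knockouts only and could hardly have gone the other way. Of the 7 that passed in both groups 6 were higher. Ifitm3, which blocks viral entry, measured 9.73 and 22.8 in the controls against 168 and 135 in the knockouts (log2 fold change 3.15 ± 0.23, adjusted p = 1.02e-09). Lgals3bp, a secreted scavenger-receptor protein, stood at 4.58 and 9.88 in the controls against 76.8 and 62.2 in the knockouts (log2 fold change 3.19 ± 0.27, adjusted p = 1.01e-08). Ifit1 and Ifit3, which bind viral RNA or its partners, were at 1.14 and 2.15 in the controls against 24.1 and 41.5 in the knockouts, and at 1.72 and 4.30 in the controls against 30.4 and 46.5 in the knockouts. Bst2, or tetherin, measured 1.72 and 4.72 in the controls against 27.7 and 41.5 in the knockouts (log2 fold change 3.37 ± 0.38, adjusted p = 7.50e-07), and Isg15, a ubiquitin-like protein, at 2.86 and 3.01 in the controls against 19.6 and 24.1 in the knockouts (log2 fold change 2.91 ± 0.40, adjusted p = 1.37e-05). Both knockouts exceeded both controls for every gene named. Oasl2, a member of the oligoadenylate synthetase family, had 1 UMI in the controls against 63 in the knockouts (ratio 88.4, 95% counting interval 15.3 to 3547). Zbp1, a sensor of Z-form nucleic acid, had none in the controls against 6.25 and 6.17 CPM in the knockouts, at least 8.43-fold higher. Stat2, Samd9l, Ifi35 and Irf1 were not called. Of the 30, 25 were called whichever library was left out. The other 5 were Ifi27, Irf8, Irf9, Trim25 and Ifih1.

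Many interferon-induced genes carry an interferon-stimulated response element near their start, and the promoters were therefore searched for its core, GAAANNGAAA, on either strand. Promoter sequences came from RefSeq on the build GRCm38.p6 and covered 250 bases before to 50 after the start of each gene. Of the 30 higher interferon genes 24 had such a sequence, and 15 of the 24 (62.5%) held the core, against 1079 of 27025 genes (3.99%) over the whole table. The list was written as one of interferon-induced genes, so a high share could come with that choice. Of the lower immediate early genes, 16 had a promoter sequence and 3 of these (18.75%) held the same core. This is a description of the letters in these windows, and no binding was measured. The 200 bases before the start of 4 of the higher genes are shown because they hold the core in single, repeated and overlapping form, with the matches in capitals and each sequence written 5′ to 3′ along its gene. They lie at chr19:34640689-34640888 on the plus strand (Ifit1), chr19:34583329-34583528 on the plus strand (Ifit3), chr4:156200819-156201018 on the minus strand (Isg15) and chr3:142620463-142620662 on the plus strand (Gbp2).
Ifit1: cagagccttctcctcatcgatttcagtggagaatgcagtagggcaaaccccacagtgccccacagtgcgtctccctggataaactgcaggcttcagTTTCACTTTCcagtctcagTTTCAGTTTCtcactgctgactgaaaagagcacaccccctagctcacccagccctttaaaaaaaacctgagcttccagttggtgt
Ifit3: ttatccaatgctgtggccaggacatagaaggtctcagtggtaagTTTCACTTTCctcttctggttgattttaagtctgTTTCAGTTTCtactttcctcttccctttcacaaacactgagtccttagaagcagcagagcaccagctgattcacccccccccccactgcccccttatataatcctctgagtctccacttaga
Isg15: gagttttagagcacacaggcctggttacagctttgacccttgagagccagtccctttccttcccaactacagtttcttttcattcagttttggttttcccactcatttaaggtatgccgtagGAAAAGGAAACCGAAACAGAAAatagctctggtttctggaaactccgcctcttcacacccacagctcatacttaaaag
Gbp2: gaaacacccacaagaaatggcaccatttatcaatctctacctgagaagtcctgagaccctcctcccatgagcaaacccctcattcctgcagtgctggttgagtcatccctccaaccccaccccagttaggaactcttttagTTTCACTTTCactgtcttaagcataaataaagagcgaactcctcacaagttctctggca
Counted from the start of the gene, the matches begin at -104 and -85 in Ifit1 and at -156 and -122 in Ifit3, all 4 on the opposite strand as TTTCNNTTTC. In Isg15 matches beginning at -78, -72 and -66 overlap into a single run, and Gbp2 has 1 match at -59. Gbp2, a guanylate-binding GTPase, had 3 UMIs in the controls against 42 in the knockouts (ratio 19.6, 95% counting interval 6.28 to 99.1).

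Genes of antigen presentation on class I molecules rose as well, with 8 of 11 tested members higher and none lower, out of 22 in the list. The filter was passed through the knockouts only by 4 of the 11, and 4 of the 7 that passed in both groups were higher. B2m, the light chain of class I molecules, was at 92.2 and 121 in the controls against 321 and 345 in the knockouts (log2 fold change 1.65 ± 0.14, adjusted p = 9.03e-09). H2-K1 and H2-D1, the classical heavy chains, stood at 14.9 and 20.2 in the controls against 122 and 117 in the knockouts, and at 25.8 and 30.9 in the controls against 127 and 128 in the knockouts, with log2 fold changes of 2.76 ± 0.19 and 2.18 ± 0.17. Tap1, which pumps peptides to these molecules, stood at 1.72 and 0.859 in the controls against 11.6 and 11.8 in the knockouts (log2 fold change 3.20 ± 0.56, adjusted p = 2.46e-04). The groups were separate for all 4, and genes of the same family share sequence, so reads of H2-K1 and H2-D1 may be split between them. H2-DMa, of the class II pathway, was at 16.6 and 11.2 in the controls against 10.7 and 11.2 in the knockouts and was not called. Psmb8 and Tap2 lost their calls without control 1, and Tap2 also without either knockout.

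Of the tested chemokine and cytokine genes 10 of 16 were higher and 2 were lower. Here 7 passed the filter through the knockouts only, and of the 9 that passed in both groups 4 were higher and 2 lower. Ccl12, which attracts monocytes, had 2 UMIs in the controls against 120 in the knockouts (ratio 84.2, 95% counting interval 22.8 to 703). Tnfrsf1a, a receptor of tumour necrosis factor, measured 7.44 and 9.02 in the controls against 32.1 and 40.9 in the knockouts (log2 fold change 2.17 ± 0.28, adjusted p = 6.78e-06). The 2 lower members are made by neurons and vessels at rest. Cx3cl1, the neuronal ligand of the microglial fractalkine receptor, stood at 503 and 537 in the controls against 276 and 286 in the knockouts (log2 fold change -0.86 ± 0.12, adjusted p = 2.09e-05). Cxcl12, a chemokine that vessels and some neurons make, was at 61.8 and 51.1 in the controls against 32.1 and 30.8 in the knockouts (log2 fold change -0.81 ± 0.20, adjusted p = 0.00536) and lost the call without knockout 2. Without knockout 2 the number of higher members was 6. Of 12 neutrophil genes 2 passed the filter, both through the knockouts only, so that their direction was set by the filter. S100a8 had 1 UMI in the controls against 54 in the knockouts (ratio 75.8, 95% counting interval 13.04 to 3048), and S100a9, its partner in calprotectin, measured 0 and 1.72 in the controls against 20.5 and 14.0 in the knockouts. Ly6g, a surface marker of neutrophils, had no UMI in any deep-layer spot. Ly6g and the other 9 untested neutrophil genes give no measure of these cells here.

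Endothelial genes were raised in the knockouts. Of 22 tested members 12 were higher and 1 was lower, with a median log2 fold change of 0.96. Cldn5, a tight junction protein, stood at 30.9 and 40.8 in the controls against 184 and 107 in the knockouts (log2 fold change 1.98 ± 0.22, adjusted p = 5.59e-07). Flt1, a receptor of vascular endothelial growth factor, was at 17.2 and 15.0 in the controls against 70.5 and 59.4 in the knockouts (log2 fold change 2.02 ± 0.22, adjusted p = 3.47e-07). Ly6a, a membrane protein of brain capillaries, measured 38.3 and 38.2 in the controls against 258 and 146 in the knockouts (log2 fold change 2.39 ± 0.21, adjusted p = 1.76e-08). In all 3 both knockouts lay above both controls, and knockout 1 was the higher of the knockouts. Slco1c1, the thyroid hormone transporter whose promoter drives the Cre in the knockouts, stood at 48.1 and 42.1 in the controls against 154 and 165 in the knockouts (log2 fold change 1.85 ± 0.15, adjusted p = 6.43e-09). Pecam1, a junctional adhesion molecule, was at 4.01 and 3.44 in the controls against 48.2 and 19.1 in the knockouts (log2 fold change 3.09 ± 0.45, adjusted p = 2.52e-05). Itm2a, a membrane protein of brain vessels, was the lower member, at 73.3 and 85.9 in the controls against 27.7 and 24.7 in the knockouts (log2 fold change -1.60 ± 0.20, adjusted p = 2.57e-06). Tek, Egfl7 and Slco1a4 stood at 5.72 and 8.16 in the controls against 12.5 and 3.92 in the knockouts, at 56.1 and 52.8 in the controls against 58.9 and 47.6 in the knockouts, and at 36.6 and 36.5 in the controls against 50.9 and 39.2 in the knockouts, and were not called. Bsg, Esam and Eng lost the call without knockout 1, and Cdh5 without knockout 1 and without control 1.

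Genes linked to cavernous malformation vessels in earlier work on such lesions were higher in 13 of 18 cases, with none lower. Of these 18, 7 passed the filter through the knockouts only, and 6 of the 11 that passed in both groups were higher. Vwf, the clotting factor stored by endothelium, stood at 4.01 and 6.44 in the controls against 45.5 and 27.5 in the knockouts (log2 fold change 2.71 ± 0.35, adjusted p = 5.59e-06). Apln, a peptide of sprouting tip cells, was at 11.4 and 9.02 in the controls against 58.0 and 42.6 in the knockouts (log2 fold change 2.30 ± 0.27, adjusted p = 1.11e-06). Heg1, the receptor that anchors KRIT1 at junctions, measured 6.87 and 7.30 in the controls against 29.5 and 22.4 in the knockouts (log2 fold change 1.84 ± 0.33, adjusted p = 2.83e-04). For each of them the groups were separate. Angpt2, which destabilizes vessels, had 1 UMI in the controls against 35 in the knockouts (ratio 49.1, 95% counting interval 8.26 to 1995). Klf4 stood at 4.01 and 5.58 in the controls against 17.9 and 15.7 in the knockouts (log2 fold change 1.77 ± 0.39, adjusted p = 0.00265). Klf2 was at 24.0 and 18.04 in the controls against 75.9 and 25.8 in the knockouts (log2 fold change 1.20 ± 0.34, adjusted p = 0.0156), with knockout 1 well above knockout 2, and it was not called without knockout 1. Thbd, or thrombomodulin, an anticoagulant receptor, measured 5.15 and 5.58 in the controls against 33.0 and 13.5 in the knockouts (log2 fold change 2.01 ± 0.43, adjusted p = 0.00178) and was also not called without knockout 1. Plvap, a component of vessel fenestrae, stood at 13.2 and 12.9 in the controls against 17.0 and 15.1 in the knockouts and was not called, and neither were Cd34, Id1, Id3 and Nos3. Ptgs2 lost its call without knockout 2, and Robo4 without control 2 and without knockout 1. In the list of the malformation complex itself, 2 of 11 tested members were higher, Heg1 and Ccm2l, the latter at 2.86 and 2.15 in the controls against 8.03 and 9.53 in the knockouts and not called when any 1 library was left out. Krit1 and Ccm2 were at 36.6 and 36.1 in the controls against 24.1 and 39.2 in the knockouts, and at 45.8 and 46.8 in the controls against 35.7 and 40.4 in the knockouts, and neither was called.

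Mural cells are the pericytes and smooth muscle cells around vessels, and 5 of their 13 tested genes were higher and none lower. The filter was passed in both groups by 4 of the 13, 2 of them higher, and through the knockouts only by 7, Tagln and Acta2 among them. Tagln, a smooth muscle actin-binding protein, measured 0.572 and 1.29 in the controls against 108 and 76.2 in the knockouts (log2 fold change 6.44 ± 0.37, adjusted p = 2.01e-11). Myl9, a myosin light chain, stood at 10.3 and 9.88 in the controls against 51.8 and 33.1 in the knockouts (log2 fold change 2.04 ± 0.29, adjusted p = 1.77e-05). Neither gene overlapped between groups. Acta2, smooth muscle actin, was at 2.29 and 6.01 in the controls against 30.4 and 7.85 in the knockouts, with knockout 1 far above the rest, and its call was lost without knockout 1. Mylk and Abcc9 lost their calls without knockout 1 as well, among other libraries. The pericyte genes Rgs5, Vtn and Pdgfrb stood at 39.5 and 38.2 in the controls against 45.5 and 28.03 in the knockouts, at 46.4 and 66.1 in the controls against 129 and 53.3 in the knockouts, and at 4.58 and 7.30 in the controls against 17.0 and 7.85 in the knockouts, and were not called. The number of higher members was 3 without control 1 and 2 without knockout 1.

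Of 15 tested genes of extracellular matrix and leptomeninges 10 were higher and none was lower. Among them 5 passed the filter through the knockouts only, and 6 of the 9 that passed in both groups were higher. Sparc, a collagen-binding protein of vessels and glia, stood at 151 and 186 in the controls against 972 and 643 in the knockouts (log2 fold change 2.27 ± 0.17, adjusted p = 1.12e-09). Col4a1 and Col4a2, the chains of basement membrane collagen, were at 17.7 and 24.5 in the controls against 114 and 86.3 in the knockouts, and at 17.7 and 19.8 in the controls against 92.8 and 58.9 in the knockouts, with log2 fold changes of 2.22 ± 0.21 and 1.98 ± 0.23. Fn1, fibronectin, measured 32.1 and 31.8 in the controls against 135 and 88.0 in the knockouts (log2 fold change 1.79 ± 0.20, adjusted p = 7.50e-07). All 4 were higher in both knockouts, and knockout 1 held the higher value. Col5a3 had no UMI in the controls against 8.93 and 6.73 CPM in the knockouts, at least 10.6-fold higher. Dcn and Ptgds, of leptomeningeal cells, stood at 80.1 and 70.4 in the controls against 68.7 and 37.0 in the knockouts, and at 540.3 and 1006 in the controls against 759 and 646 in the knockouts, and were not called. Without knockout 1 the count of higher members was 6.

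Myelin genes fell. Of 19 tested members 16 were lower and 1 was higher, with a median log2 fold change of -1.58. Mog, a protein of the outer myelin surface, was at 157 and 204 in the controls against 33.0 and 33.6 in the knockouts (log2 fold change -2.42 ± 0.18, adjusted p = 1.12e-09). Opalin, a membrane protein of oligodendrocytes, stood at 89.3 and 97.9 in the controls against 12.5 and 14.6 in the knockouts (log2 fold change -2.75 ± 0.21, adjusted p = 2.31e-09). Ugt8a, which makes galactolipids of myelin, was at 74.4 and 110.0 in the controls against 15.2 and 16.3 in the knockouts (log2 fold change -2.54 ± 0.24, adjusted p = 4.86e-08). Both knockouts were below both controls for these 3, and control 2 held the highest level. Mbp, whose RNA travels into the myelin sheath, measured 2946 and 5434 in the controls against 1385 and 1384 in the knockouts (log2 fold change -1.58 ± 0.20, adjusted p = 3.72e-06). Cldn11, Car2, Cryab and Mobp fell least, by 0.62, 0.60, 0.65 and 0.84 on the log2 scale. Trf, the transferrin of oligodendrocytes, stood at 262 and 365 in the controls against 293 and 371 in the knockouts and was not called. Apod, a lipid-binding apolipoprotein of oligodendrocytes and of vessel-associated cells, was the higher member, at 197 and 303 in the controls against 2052 and 2220.4 in the knockouts (log2 fold change 3.11 ± 0.17, adjusted p = 9.94e-12). When each library was left out in turn, 14 of the 17 kept the call, and Cldn11, Car2 and Cryab did not. How much white matter each section's spots covered was not measured, and its part in this result was not tested.

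Genes of oligodendrocyte precursors and of cells that have just begun to make myelin were lower in 5 of 13 cases, with none higher. Of the 13, 2 passed the filter through the controls only, and 4 of the other 11 were lower. Enpp6, which marks newly formed oligodendrocytes, was at 13.2 and 21.5 in the controls against 1.79 and 1.68 in the knockouts (log2 fold change -3.29 ± 0.53, adjusted p = 8.99e-05). Bcas1, another gene of early myelinating cells, measured 72.7 and 148 in the controls against 43.7 and 33.1 in the knockouts (log2 fold change -1.56 ± 0.26, adjusted p = 1.31e-04). Cspg5, a proteoglycan also made by neurons and astrocytes, stood at 279 and 296 in the controls against 138 and 143 in the knockouts (log2 fold change -1.01 ± 0.13, adjusted p = 3.93e-06). The groups did not overlap for these. Gpr17 and Olig1 were the other lower members, at -1.42 ± 0.30 and -0.94 ± 0.16 on the log2 scale, and Gpr17 lost its call without knockout 2. Pdgfra and Vcan, which mark the precursors themselves, were at 21.8 and 31.8 in the controls against 33.9 and 27.5 in the knockouts, and at 10.3 and 7.73 in the controls against 7.14 and 9.53 in the knockouts, and were not called.

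Of 15 tested genes that glucocorticoids induce 10 were higher and 1 was lower, with a median log2 fold change of 0.93. Of the 13 that passed the filter in both groups 8 were higher and 1 was lower. Mt1 and Mt2, the zinc-binding metallothioneins, stood at 1092 and 1403 in the controls against 7265 and 6029 in the knockouts, and at 169 and 362 in the controls against 2178 and 1771 in the knockouts. Their log2 fold changes were 2.44 ± 0.17 and 2.90 ± 0.22. Fkbp5, a chaperone partner of the glucocorticoid receptor, stood at 17.2 and 18.5 in the controls against 83.0 and 67.8 in the knockouts (log2 fold change 2.07 ± 0.21, adjusted p = 1.18e-07), and Sult1a1, a sulfotransferase, at 6.87 and 10.3 in the controls against 50.9 and 44.8 in the knockouts (log2 fold change 2.44 ± 0.27, adjusted p = 5.52e-07). These 4 were well apart between groups. Cdkn1a, an inhibitor of the cell cycle, was at 15.5 and 18.5 in the controls against 62.5 and 74.6 in the knockouts. Plin4, a lipid droplet protein, had 2 UMIs in the controls against 54 in the knockouts (ratio 37.9, 95% counting interval 9.99 to 321). Tsc22d3, a glucocorticoid-induced leucine zipper protein, measured 96.2 and 114 in the controls against 175 and 111 in the knockouts and was not called (log2 fold change 0.43 ± 0.18, adjusted p = 0.104). Per1, the lower member, is also a clock gene and an immediate early gene, and stood at 107 and 109 in the controls against 60.7 and 65.03 in the knockouts (log2 fold change -0.75 ± 0.16, adjusted p = 0.00143). Sgk1, Zbtb16 and Klf9 lost their calls without at least 1 library each. Metallothioneins also respond to zinc and to inflammation, so the list does not stand for glucocorticoids alone.

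Hypoxia-responsive genes were higher in 10 of 18 cases, with none lower, and 8 of the 15 that passed the filter in both groups were higher. Adm, the vasodilator peptide adrenomedullin, was at 2.86 and 1.29 in the controls against 33.0 and 32.5 in the knockouts (log2 fold change 4.03 ± 0.40, adjusted p = 1.12e-07). Vegfa, the main growth factor of endothelium, measured 30.9 and 33.1 in the controls against 78.6 and 115 in the knockouts (log2 fold change 1.64 ± 0.19, adjusted p = 1.36e-06). Slc2a1, the glucose transporter of the blood-brain barrier, stood at 80.7 and 104 in the controls against 309 and 227 in the knockouts (log2 fold change 1.53 ± 0.16, adjusted p = 2.28e-07). Both knockouts were above both controls in each. The glycolytic enzymes Ldha and Pgk1 were at 775 and 556 in the controls against 588 and 693 in the knockouts, and at 625 and 515 in the controls against 617 and 783 in the knockouts, and were not called. Without knockout 2 the number of higher members was 5, with Bnip3, Pfkfb3, Kdm3a and Ero1l among those lost. The labels' account of oxygen differs between groups in 1 of its fields, and oxygen and genotype cannot be told apart in this list.

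Iron and heme genes were higher in 6 of 11 tested members, with none lower, and 3 of the 7 that passed the filter in both groups were higher. Hmox1, which breaks down heme, measured 2.29 and 1.29 in the controls against 14.3 and 13.5 in the knockouts (log2 fold change 2.97 ± 0.50, adjusted p = 1.76e-04). Fth1 and Ftl1, the ferritin chains that store iron, stood at 3864 and 4314 in the controls against 7857 and 7382 in the knockouts, and at 499.7 and 421 in the controls against 613 and 665 in the knockouts, with log2 fold changes of 0.92 ± 0.15 and 0.50 ± 0.13. Tfrc, the transferrin receptor, was at 64.7 and 56.3 in the controls against 92.8 and 97.5 in the knockouts (log2 fold change 0.69 ± 0.16, adjusted p = 0.00402). All 4 were higher in each knockout than in each control, and Ftl1 lost the call without knockout 2. Slc40a1, the iron exporter, measured 6.30 and 5.15 in the controls against 8.03 and 4.48 in the knockouts and was not called. Hemoglobin RNA made up 0.120% and 0.0886% of the UMIs in the control spots and 0.153% and 0.174% in the knockout spots.

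Heat shock and endoplasmic reticulum stress genes were lower in 6 of 21 tested cases and higher in 1, Hspb1. Atf4, the transcription factor of the integrated stress response, stood at 215 and 192 in the controls against 99.99 and 112 in the knockouts (log2 fold change -0.91 ± 0.14, adjusted p = 3.91e-05). Hsph1, a cytosolic chaperone, was at 291 and 244 in the controls against 149.978 and 144 in the knockouts (log2 fold change -0.84 ± 0.13, adjusted p = 6.81e-05). These kept their calls whichever library was left out. Hspa8, Hsp90aa1 and Dnajb1 fell by 0.48, 0.46 and 0.60 on the log2 scale and lost the call without knockout 1 and without knockout 2. The count of lower members was 3 without knockout 1 and 3 without knockout 2. Hspa5, the chaperone of the endoplasmic reticulum, measured 248 and 226 in the controls against 189 and 302 in the knockouts and was not called.

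Genes that injured neurons change moved in both directions, with 5 of 16 tested members higher and 5 lower. Gap43, a growth cone protein, stood at 536 and 438 in the controls against 296 and 314 in the knockouts (log2 fold change -0.65 ± 0.13, adjusted p = 9.31e-04), and Stmn4, a stathmin that destabilizes microtubules, at 454 and 347 in the controls against 159 and 184 in the knockouts (log2 fold change -1.19 ± 0.14, adjusted p = 1.42e-06). Gadd45a, a gene induced by DNA damage and axon injury, was at 49.2 and 40.4 in the controls against 8.93 and 16.3 in the knockouts (log2 fold change -1.71 ± 0.27, adjusted p = 6.05e-05). In these the knockouts were below the controls without overlap. Gal, the neuropeptide galanin, had 2 UMIs in the controls against 33 in the knockouts (ratio 23.2, 95% counting interval 5.92 to 199). Tubb6, a beta tubulin, measured 1.14 and 1.29 in the controls against 22.3 and 15.7 in the knockouts (log2 fold change 3.86 ± 0.51, adjusted p = 8.34e-06). Tubb2b and Klf6 were higher, at 1.06 ± 0.14 and 0.99 ± 0.20 on the log2 scale. Tubb3 and Nefl were lower and lost the call without knockout 2.

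In the respiratory chain 4 of 35 tested members were higher and 8 were lower, and the called members split by the genome that encodes them. The 4 higher members were mitochondrial genes, mt-Nd4l, mt-Nd5, mt-Nd6 and mt-Atp8. The 8 lower members were nuclear genes, with Ndufa4 at 1998 and 1687 in the controls against 1219 and 1162 in the knockouts (log2 fold change -0.61 ± 0.13, adjusted p = 0.0028) and Uqcrb at 547 and 423 in the controls against 314 and 308 in the knockouts (log2 fold change -0.61 ± 0.13, adjusted p = 0.00208). mt-Co1, a core subunit of cytochrome oxidase, stood at 8571 and 15813 in the controls against 17479 and 18146 in the knockouts and was not called (log2 fold change 0.57 ± 0.21, adjusted p = 0.074). Control 1 was the lowest library for these mitochondrial genes, in which its share of mitochondrial UMIs was also the lowest. The count of higher members was 2 without control 1 and 13 without control 2, and that of lower members was 13 without control 2, 3 without knockout 1 and 1 without knockout 2. Of 19 cholesterol synthesis genes, Cyp51, a demethylase of the pathway, was called lower (log2 fold change -0.53 ± 0.18, adjusted p = 0.0456) and lost the call without control 2, knockout 1 or knockout 2.

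The spots were also compared among themselves after each was thinned at random to 5000 UMIs, which removes the difference in depth. For the reactive astrocyte list the median spot held 1 UMI in each control, and 15.5 and 16 in the knockouts. The highest control spot held 7, and 92.6% of the spots of knockout 1 and 92.2% of those of knockout 2 lay above it. The lowest knockout spots held 2 and 5. The rise was thus spread over nearly all deep-layer spots. Serpina3n was detected in 4.41% and 1.12% of control spots against 87.2% and 92.2% of knockout spots, and Gfap in 22.1% and 22.5% of control spots against 90.4% and 78.4% of knockout spots. The glucocorticoid list behaved similarly, with medians of 10 and 12 in the controls against 51.5 and 43 in the knockouts, and 97.9% and 86.2% of knockout spots above the highest control spot at 27.

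Other lists were less even over the spots. The activated phagocyte list had medians of 28.5 and 31 in the controls against 57.5 and 58.5 in the knockouts, and 22.3% and 20.7% of knockout spots lay above the highest control spot at 83, the highest of them at 306. For the interferon list the medians were 1 in each control and 4 in each knockout, with 26.6% and 34.5% of knockout spots above the highest control spot at 5. Cxcl10 was one of the genes found in few spots. It was detected in 3.19% and 8.62% of knockout spots (95% Wilson intervals 1.09% to 8.97% and 4.75% to 15.1%), and a count of 0 allows up to 4.41% and 3.37% in the controls. Before thinning, a single spot of knockout 2 held 66 of that library's 128 Cxcl10 UMIs, so its level there rests on few spots. Spp1 was more widespread, in 1.47% and 5.62% of control spots against 58.5% and 58.6% of knockout spots, although a single spot of knockout 2 held 233 of 775 UMIs. The immediate early genes had medians of 14.5 and 12 in the controls against 7 and 6 in the knockouts, with overlapping ranges of 2 to 38 and 0 to 16. Arc was detected in 54.4% and 43.8% of control spots against 14.9% and 13.8% of knockout spots. The myelin list had medians of 42.5 and 61 in the controls against 24 and 28 in the knockouts, also with wide overlap. Without Apod its medians were 41 and 60 in the controls against 16 in each knockout.

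**Figure D4:**
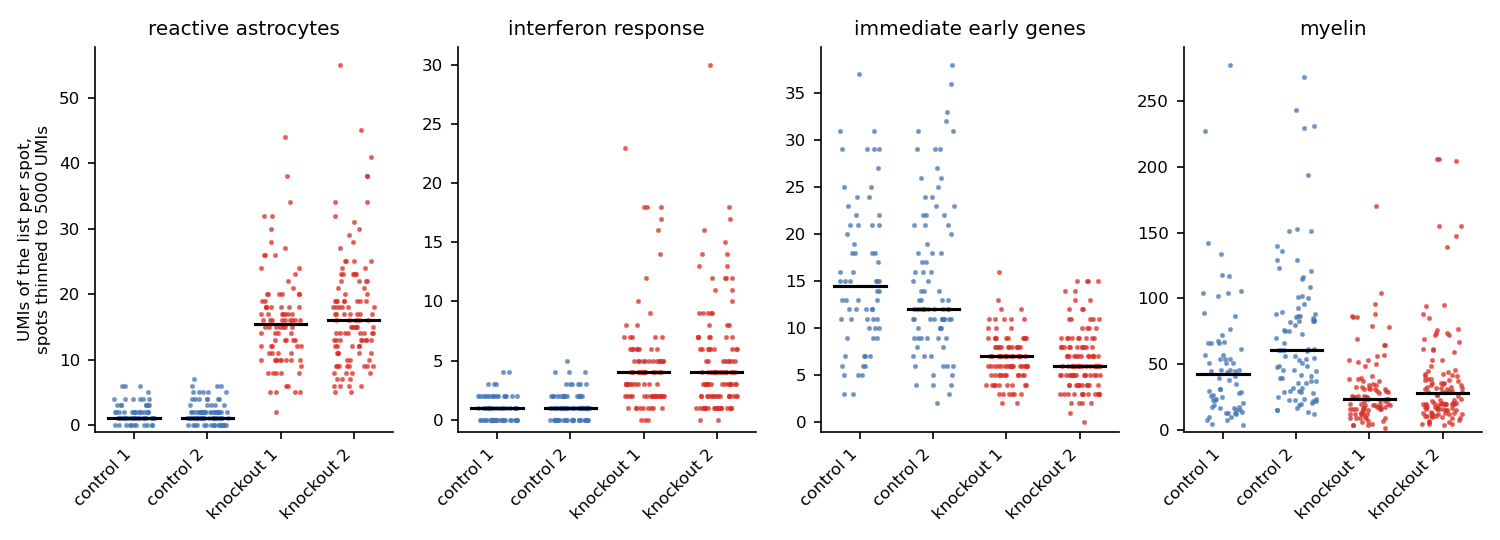
Summed UMIs of 4 gene lists in every deep-layer spot, by library, after each spot was thinned to 5000 UMIs, with each spot a point and the median a black line. Reactive astrocyte sums in the knockouts lie almost wholly above those of the controls, interferon sums rise with a long tail, and immediate early and myelin sums are lower with overlap.

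Within the knockout libraries, spots rich in reactive astrocyte UMIs also tended to be rich in those of phagocytes. Spearman's rho between the 2 sums was 0.60 over the 94 spots of knockout 1 and 0.52 over the 116 of knockout 2, and 0.05 and -0.04 in the controls. With the myelin list it was 0.53 and 0.47 in the knockouts and 0.13 and -0.01 in the controls. Apod, which rose, made up 34.3% and 33.7% of the myelin list's UMIs in the thinned knockout spots, and without it rho was 0.53 and 0.44 in the knockouts. With the cortical excitatory neuron list it was -0.29 and -0.38 in the knockouts and -0.28 and -0.06 in the controls. Spots of a library share a section and a fixed UMI total, so that a rise of 1 list leaves less room for another, and control sums of 1 or 2 UMIs leave little to correlate. These values are descriptions with no test.

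The change in the deep-layer spots was set against that in all other spots of the same libraries, with an interaction test that kept the library as a block. Of 16873 genes tested, 295 (1.75%) had a more positive knockout change in the deep-layer spots and 121 (0.717%) a more negative one. Together they made 2.47%. The prior degrees of freedom of this fit were infinite, so its p-values rest on a spread pooled over all genes, and the count fell to 172 without control 1 and to 194 without control 2. Among astrocyte genes, 10 of 32 tested members of the reactive list and 11 of 20 of the general list were more positive in the deep-layer spots and none was more negative. Vim went from 21.2 and 26.6 in the controls against 828 and 902 in the knockouts in the deep-layer spots, and from 36.3 and 41.0 in the controls against 453 and 455 in the knockouts in the other spots, a difference in log2 fold change of 1.66 ± 0.14 (adjusted p = 5.49e-29). In both classes the knockouts were above the controls, and the deep-layer spots were lower than the others in the controls and higher in the knockouts. Serpina3n stood in the other spots at 15.6 and 18.4 in the controls against 382 and 399 in the knockouts (difference 1.96 ± 0.22), and Gfap at 59.1 and 71.2 in the controls against 344 and 293 in the knockouts (difference 1.12 ± 0.13). Igfbp2 stood there at 46.2 and 44.3 in the controls against 194 and 173 in the knockouts (difference 2.69 ± 0.17).

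Of the activated phagocyte and interferon lists 13 of 29 and 14 of 37 tested members were more positive in the deep-layer spots and none was more negative. Against the upper cortex, described below, far fewer members of these lists and of the astrocyte lists differed. Spp1 stood in the other spots at 23.0025 and 21.8 in the controls against 165 and 185 in the knockouts, a difference of 3.43 ± 0.23 (adjusted p = 1.99e-45). Ccl12 stood there at 1.15 and 1.35 in the controls against 11.5 and 12.5 in the knockouts (difference 3.13 ± 0.78), and Tagln at 2.70 and 3.42 in the controls against 45.9 and 32.9 in the knockouts (difference 2.93 ± 0.55). S100a11, a calcium-binding protein, stood at 1.72 and 4.30 in the controls against 142 and 101 in the knockouts in the deep-layer spots, and at 8.93 and 10.5 in the controls against 57.3 and 57.9 in the knockouts in the others (difference 2.70 ± 0.32). Klk6, a secreted protease of oligodendrocytes, stood at 2.29 and 6.01 in the controls against 22.3 and 37.6 in the knockouts in the deep-layer spots, and at 10.5 and 12.2 in the controls against 9.65 and 9.14 in the knockouts elsewhere (difference 3.17 ± 0.36). In Klk6 the deep-layer spots of the knockouts were above those of the controls, while the other spots of the knockouts were below. Cd109 had no UMI in the deep-layer spots of the controls, and stood elsewhere at 0.713 and 1.14 in the controls against 13.9 and 13.9 in the knockouts. Its fitted difference of 8.84 ± 2.45 depends on the prior count and is no bound. All 13 mitochondrially encoded genes of the respiratory chain list were more positive as well, while 1 of its 22 nuclear genes, Ndufa4, was more negative. mt-Co1 stood at 8571 and 15813 in the controls against 17479 and 18146 in the knockouts in the deep-layer spots, and at 13442 and 21123 in the controls against 17830.1 and 16654 in the knockouts in the others (difference 0.63 ± 0.06), and control 1 was the lowest library in both classes.

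In the negative direction, 7 of 18 inhibitory neuron genes and 7 of 20 neuropeptide genes had a more negative change in the deep-layer spots, and none and 1 a more positive one. Tac1, which fell there, stood in the other spots at 58.2 and 58.8 in the controls against 58.8 and 68.5 in the knockouts (difference -2.03 ± 0.24, adjusted p = 3.02e-15). Pvalb stood in the other spots at 197 and 158 in the controls against 219 and 175 in the knockouts (difference -0.78 ± 0.13), and Slc32a1 at 107 and 121 in the controls against 90.6 and 78.8 in the knockouts (difference -0.69 ± 0.17). Npy, which was not called within the deep-layer spots, stood in the other spots at 176 and 168 in the controls against 390.2 and 425 in the knockouts (difference -0.90 ± 0.10). Cartpt, a peptide of hypothalamic and other neurons, stood at 13.2 and 13.3 in the controls against 9.82 and 13.5 in the knockouts in the deep-layer spots, and at 43.6 and 31.1 in the controls against 149 and 227 in the knockouts in the others (difference -2.52 ± 0.32), so its difference came with higher levels outside the deep layers. Of the layer 6 markers, Rprm stood elsewhere at 91.0 and 73.7 in the controls against 144 and 172 in the knockouts (difference -0.88 ± 0.10), and Nxph4, a neurexophilin of layer 6b, at 7.26 and 7.46 in the controls against 11.6 and 10.8 in the knockouts (difference -1.54 ± 0.37). Gadd45a and Ano4, a chloride channel family member, were lower in the deep-layer spots of the knockouts and near control levels elsewhere, with differences of -1.61 ± 0.28 and -1.40 ± 0.33. Ly6g6e, a lymphocyte antigen 6 family protein, stood at 22.3 and 15.5 in the controls against 25.9 and 29.1 in the knockouts in the deep-layer spots, and at 4.82 and 3.70 in the controls against 20.9 and 16.3 in the knockouts elsewhere (difference -1.47 ± 0.29). The other spots hold hippocampus, thalamus and whatever else each section covered, and how the 4 sections compare in that makeup was not tested.

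**Figure D5:**
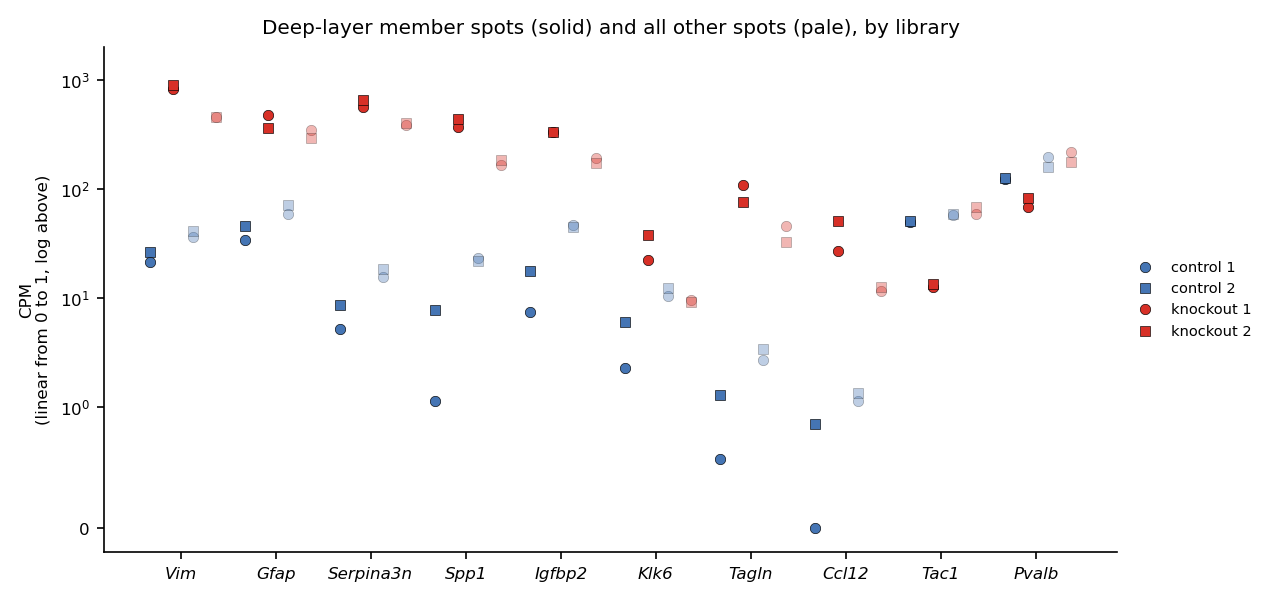
Levels of 10 genes in the deep-layer spots (solid points) and in all other spots (pale points) of each library, in CPM on an axis linear from 0 to 1 and logarithmic above, with controls in blue and knockouts in red. For the genes from Vim to Ccl12 the solid points span a wider gap between groups than the pale ones, and for Tac1 and Pvalb only the solid red points lie clearly below the blue.

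The nearest tissue in the same sections is the upper cortex, for which 570 spots were chosen in the same manner from summed Cux2, Rasgrf2 and Lamp5. Of 12329 genes tested, 202 (1.64%) had a more positive knockout change in the deep-layer spots and 103 (0.835%) a more negative one, 2.47% in all. Without control 1 the total was 75, and without knockout 2 it was 189. Of the reactive astrocyte list 1 of 28 tested members (S1pr3) was more positive in the deep-layer spots, and of the general astrocyte list 3 of 20. For the activated phagocyte list it was 2 of 25 (Fcer1g and Spp1), and for the interferon list 1 of 35 (Bst2). No member of these lists was more negative. Whether this comparison and that with all other spots differ was not tested. Some markers of other regions differed between groups in the upper-layer spots. C1ql2, of the dentate gyrus, was at 1.85 and 9.05 there in the controls against 22.99 and 27.5 in the knockouts. Wfs1, a CA1 gene, was at 108 and 93.3 in the controls against 401 and 375 in the knockouts, but it was also higher in all other spots of the knockouts, at 53.0 and 49.1 against 208 and 215. Fibcd1, another CA1 gene, overlapped between groups in the upper-layer spots, at 6.03 and 7.66 against 7.07 and 5.36. Lamp5, which helped to choose these spots, was lower in the knockouts both there and in all other spots. Whether the class holds the same tissue in both groups was not tested. A version chosen after this was seen, with upper-layer spots that held neither C1ql2 nor Prox1, called 261 genes, 228 of them shared. As these spots were chosen to hold no C1ql2 UMI, the loss of the C1ql2 call there (difference -1.30) followed from the choice. Other genes lost the call too, by edgeR. Among them were Slc32a1 (difference -0.74, adjusted p = 0.0720), Gadd45a (-1.37, adjusted p = 0.207), Spp1 (1.51, adjusted p = 0.138) and Bst2 (1.99, adjusted p = 0.104).

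The immediate early genes differed most by count, with 18 of 28 tested members more positive in the deep-layer spots. For all of these but Klf4 this means a smaller fall. Klf4 was higher in the deep-layer spots of the knockouts. In the upper-layer spots it stood at 9.27 and 13.9 in the controls against 13.3 and 13.4 in the knockouts (difference 1.71 ± 0.45). Fos stood in the upper-layer spots at 355 and 270.4 in the controls against 24.3 and 21.4 in the knockouts (difference 1.86 ± 0.24), Egr1 at 1123 and 860.4 in the controls against 96.4 and 107 in the knockouts (difference 1.67 ± 0.13), and Npas4, a transcription factor induced by calcium, at 109.8 and 86.3 in the controls against 3.98 and 3.68 in the knockouts (difference 3.50 ± 0.43, adjusted p = 4.73e-05). The upper-layer spots of the controls held more of each than the deep-layer spots, and those of the knockouts held less. Arc stood there at 431 and 395 in the controls against 37.6 and 40.2 in the knockouts (difference 0.93 ± 0.20). Igfbp2 stood in the upper-layer spots at 56.5 and 55.0 in the controls against 328 and 239.8 in the knockouts (difference 2.47 ± 0.26). Nectin3, an adhesion protein, Ptgs2, a prostaglandin synthase of active neurons and of endothelium, Nptx2 and Rasl11a, a small GTPase, completed the 6 most positive differences. Ptgs2 stood at 3.43 and 6.01 in the controls against 14.3 and 20.7 in the knockouts in the deep-layer spots, and at 41.7 and 33.8 in the controls against 24.3 and 33.5 in the knockouts in the upper ones (difference 2.32 ± 0.40). Nptx2 stood in the upper-layer spots at 121 and 80.1 in the controls against 76.0 and 73.7 in the knockouts (difference 2.15 ± 0.26). Its levels thus differed in direction between the 2 classes, and the change within the upper-layer spots alone was not tested.

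As against all other spots, the 13 mitochondrially encoded genes were each more positive in the deep-layer spots than in the upper ones, with mt-Co1 at 17977 and 27158 in the controls against 17638 and 20512 in the knockouts in the upper-layer spots (difference 0.96 ± 0.08). Control 1 was the lower of the controls in both classes. In the negative direction 6 of 19 myelin genes differed, and Mbp stood in the upper-layer spots at 851 and 1494 in the controls against 1088 and 606 in the knockouts (difference -0.93 ± 0.15). Sst and Slc32a1 fell more in the deep-layer spots, with differences of -0.67 ± 0.15 and -0.81 ± 0.20. C1ql2, Nnat, Ano4, Dlk1, Npy2r and Islr2 had the 6 most negative differences. Nnat, a small membrane protein of neurons, stood at 588 and 511 in the controls against 547 and 394 in the knockouts in the deep-layer spots, and at 51.0 and 97.8 in the controls against 574 and 312 in the knockouts in the upper ones (difference -2.59 ± 0.20). For all 6 the upper-layer spots of the knockouts lay above those of the controls, and the part of tissue content in these differences was not tested.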

How the data were processed

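Polyadenylated RNA of 4 mouse brain sections (2 controls, 2 knockouts) was measured with Visium. The authors deposited UMI counts per gene and spot, not normalized, made with Cell Ranger 4 per the file headers. The submitters' processing notes name Space Ranger and the build mm10, and the Space Ranger version is not given in the sources used here. Each file held 32285 genes and 4992 barcodes. The members and gene lists were chosen with earlier results of these data known, and no p-value was adjusted over a list alone. Counts of the member spots were summed per library, since spots are not replicates, and tested with edgeR 4.0.16 in R 4.3.3 (TMM scaling, filterByExpr, glmQLFit and glmQLFTest, Benjamini-Hochberg over all tested genes, called under 0.05). The filter kept genes above about 5.66 CPM in 2 libraries. Differences between spot classes were interaction terms with library as a block. DESeq2 1.42.0 was an alternative, as were other scaling, filters, shares of spots (3% and 10%), scores, a minimum of 10000 UMIs, thinning to 1 depth with 68 spots per library, the replicate block and leaving out each library. With 2 libraries against 2, an exact permutation test over samples cannot go below p = 0.33, so none was run.

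Genes named are those with at least 10 CPM on average: the 10 largest rises and falls and the 6 smallest p among calls whose libraries did not overlap, up to 3 of the smallest p per list, and the 6 largest differences each way per interaction. Some genes that this rule picks are not reported here. Other list members were named after their values were seen. Of 713 list genes, 6 symbols had no match and are not analysed here. Levels are plain CPM (UMIs per 1000000), and fold changes come from the TMM fit. Ratios of sums with 3 or fewer UMIs in a group carry exact 95% intervals, shares of spots Wilson intervals. On simulated counts with known changes the main test recovered 66% of 2-fold and 90% of 4-fold changes, with 10 false calls among 166. The test against upper-layer spots recovered 50% and 94%, and that against all other spots 58% and 70%. The simulation gave all genes 1 spread and the libraries no shared shifts, so these rates need not hold for the real data. Replicates differed by more than sampling noise (chi-square per degree of freedom 4.31 in the controls against 1.71 in the knockouts). Same-numbered libraries did not deviate together across genes (r = -0.08), which cannot show whether the numbers pair the samples.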

Additional observations from a re-analysis of the deposited data

Results flagged for a closer look

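Each value here is a knockout change in the deep-layer spots minus the change in another class of spots of the same libraries, on the log2 scale, and each passed the edgeR interaction test. Against the upper-layer spots, the most positive differences were those of Npas4 (3.50), Igfbp2 (2.47), Nectin3 (2.38), Ptgs2 (2.32), Nptx2 (2.15) and Rasl11a (2.12). The most negative were those of C1ql2 (-3.41), Nnat (-2.59), Ano4 (-2.43), Dlk1 (-2.36), Npy2r (-2.23) and Islr2 (-2.21). These 6 genes were higher in the upper-layer spots of the knockouts than in those of the controls, and the part of tissue content was not tested.

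Against all other spots, Spp1 (3.43), Klk6 (3.17), Ccl12 (3.13), Tagln (2.93) and S100a11 (2.70) had the most positive differences after Cd109 (8.84), which had no UMI in the deep-layer spots of the controls. Cartpt (-2.52), Tac1 (-2.03), Gadd45a (-1.61), Nxph4 (-1.54), Ly6g6e (-1.47) and Ano4 (-1.40) had the most negative. Klk6 levels differed in direction between the 2 classes, with the deep-layer spots of the knockouts above and the other spots below their controls. The change within the other spots alone was not tested. Groups of 2 libraries are too small to look for outlying samples.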

How the results depend on the processing

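Of the 1830 calls (1031 higher, 799 lower), DESeq2 made 706 (454 and 252), all shared. The highest 3% of spots gave 1095 (640 and 455), the highest 10% gave 2790, of which 1263 were lower, and equal numbers of spots at 1 depth gave 506 (284 and 222). Leaving out each library gave 1115 to 1945 calls, 707 to 1030 higher and 408 to 915 lower. The lowest came without knockout 2, and the lower calls also went down to 519 without knockout 1. No filter gave 2235. With the replicate block there were 1847 calls, 1768 of them shared, and whether the numbers pair the samples is not known.

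The difference against the upper-layer spots was called for 305 genes, for 75 to 356 when each library was left out (49 to 226 positive, 26 to 130 negative), and for 120 after thinning (67 and 53). Against all other spots it was called for 416, for 172 to 437 (123 to 251 and 39 to 186), and for 102 after thinning (81 and 21). Thinned data test fewer genes, and the cause of the other shifts was not tested. 

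Of 108 genes that the naming rule picked and that were called between genotypes, 88 kept the call in each alternative that tested them. None changed direction. Not every alternative tested every gene. With equal numbers of spots at 1 depth, 76 of these genes kept the call, 11 lost it and the rest were not tested. Of 312 called list members 174 kept the call in each alternative that tested them, and none changed direction. Among differences, 5 values changed sign, none of them called there, all against other spots: Nefm and Sgk1 after thinning (0.17 and 0.086), Col1a2 without knockout 1 (-0.15 to 3.39 when each library was left out), Hspa5 without knockout 2 (-0.052 to 0.52) and Ptgds without control 2 (-0.83 to 0.15). The cause of these shifts was not tested. A difference that keeps its sign need not keep its call. After thinning, 96 of the 305 calls against the upper-layer spots and 94 of the 416 against all other spots were made again. With RLE in place of TMM scaling these counts were 289 and 416. The main test left out genes that did not reach about 5.66 CPM in 2 libraries.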
